A study of Homo sapiens with 7 samples.

Results

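The DNA glycosylases described here are the products of 10 genes, NTHL1, OGG1, MUTYH, UNG, SMUG1, TDG, NEIL1, NEIL2, NEIL3 and MPG. They were chosen by name as a family of enzymes, at a time when earlier results of these data were known, and their rows were read from a table of estimated gene counts that lists 19978 genes. All 10 were in the table, and all 10 passed the filter on low counts, which left 14863 genes to test. The cells were HEK-293, an established human embryonic kidney line, kept for 48 h under 3 conditions. The control group (2 libraries) was kept at pH 7.4 with DMSO, the solvent of the inhibitor. The SRPIN340 group (2 libraries) was kept at pH 7.4 with 10 µM SRPIN340, an inhibitor of the kinases that phosphorylate SR-rich splicing factors. The acidosis group (3 libraries) was kept in medium acidified to pH 6.6, with the same volume of DMSO as the control. The design asks how prolonged mild acidification changes transcripts, and whether blocking SR protein kinases at normal pH does the same.

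Glycosylases open base excision repair. Each one recognises a set of damaged or misplaced bases and cuts the base from its sugar, after which an endonuclease, a polymerase and a ligase replace the missing nucleotide. Some, such as UNG, SMUG1, TDG and MPG, only remove the base, whereas NTHL1, OGG1 and the NEIL enzymes can also nick the strand. TDG has a further known role in active DNA demethylation, since it removes oxidised forms of methylcytosine.

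In acidosis 8 of the 10 glycosylase transcripts fell and 1 rose (edgeR quasi-likelihood test, adjusted p under 0.05). NTHL1 fell most, by 2.71 on the log2 scale (6.56-fold), and UNG was the one that rose, by 1.44 on the log2 scale (2.72-fold). MUTYH did not pass the test. Among all genes tested 34.2% fell and 32.5% rose at the same threshold, and their median log2 fold change was -0.05, against -0.95 over the 10 glycosylases. Since the genes were chosen with such results known, these shares and medians are descriptions. With SRPIN340 no glycosylase passed.

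Sequence around the starts is shown first for the genes at the 2 ends of this range and for TDG, the most abundant transcript that fell. NTHL1 and TDG each share a short intergenic stretch with a gene that runs the other way, TSC2 and UQCC6, so the whole stretch between the annotated gene ends is given. For UNG the 100 bases before the first annotated start are given. All 3 were taken from the RefSeq promoter windows of GRCh38.p14, with gene ends from GENCODE release 44, and each is written on the strand of the glycosylase. Capitals mark every match in these stretches to the E-box CACGTG, which reads the same on both strands, and to the GC box GGGCGG, which here lies on the other strand as CCGCCC. NTHL1 holds both, TDG the E-box and UNG the GC box 2 times.
NTHL1, chr16:2047867-2047966, minus strand: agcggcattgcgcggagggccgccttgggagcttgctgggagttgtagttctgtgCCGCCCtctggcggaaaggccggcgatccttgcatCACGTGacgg
TDG, chr12:103965709-103965821, plus strand: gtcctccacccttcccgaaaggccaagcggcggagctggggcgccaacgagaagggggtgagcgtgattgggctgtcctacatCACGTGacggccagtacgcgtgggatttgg
UNG, chr12:109097497-109097596, plus strand: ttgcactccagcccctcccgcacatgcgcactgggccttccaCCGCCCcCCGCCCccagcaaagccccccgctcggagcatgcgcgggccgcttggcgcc

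The E-box of NTHL1 lay 5 bases before the NTHL1 start and 91 bases before that of TSC2. In TDG it lay 25 bases before the TDG start and 84 bases before that of UQCC6. The longest run the NTHL1 and TDG stretches shared was catCACGTGacgg, 13 bases with the E-box inside, and 8 of the 35116 promoter windows held this run on either strand. Since the run was taken from NTHL1 and TDG, their own windows were among these, as was that of TSC2, which shares the NTHL1 stretch. The others were of LYPD1, MTM1, PRR20G, SCPEP1 and SLC61A1. UQCC6 was not among the genes named, although the TDG stretch that holds the run lies beside its annotated start too. The reason was not examined. The E-box was found in 4 of the 13 windows of the glycosylases, 1 each for NTHL1, TDG, MPG and UNG. It was found in 7.26% of all windows of this length (300 bases, both strands searched). A GC box was found in 10 of the 13 windows and 45% of all windows. The sequence CCAAT was found in 9 of the 13 windows and 34.6% of all windows. No window was listed for SMUG1 or NEIL2. E-boxes were thus present at 3 genes that fell and at 1 start of UNG, which rose, and these matches are descriptions of letters only.

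The libraries held between 13615816 and 24110460 estimated counts, and the 3 lowest totals were those of acidosis. Levels are given as CPM, the count normalised to the library total after scaling by trimmed means (TMM). The choice of scaling mattered in acidosis. With plain library totals the median log2 fold change of all tested genes went from -0.05 to -0.63, and the split of genes passing went from 4836 higher and 5081 lower to 2413 higher and 8179 lower. Under that scaling 8 glycosylases still fell and 1 still rose. Of the 7 markers of HEK-293, VIM, KRT8, KRT18, NEFL, NEFM and CDH2 were present at 22.6 CPM or more in every library and PAX2 at 7.06 CPM or less. Their summed level was 1595 to 1651 CPM in control, 1592 to 1654 with SRPIN340 and 3727 to 3744 in acidosis. VIM made up most of that sum, with a mean of 867 CPM in control, 864 with SRPIN340 and 2714 in acidosis. In acidosis 5 of these 7 rose, among them VIM by 1.65 on the log2 scale (edgeR adjusted p = 2.02e-08) and NEFM by 1.65 (edgeR adjusted p = 2.87e-07), and 2 fell, KRT18 and PAX2, PAX2 by 1.93 (edgeR adjusted p = 2.4e-04). With plain library totals 2 rose and 3 fell. With SRPIN340 NEFM alone of the 7 passed, at 0.55 (edgeR adjusted p = 0.0284). Of 7 markers of other cell types CD3E was at 0 in every library, and PTPRC, PECAM1, ALB and HBB were each under 1 CPM. The other 2 were the collagen genes COL1A1 and COL3A1. The summed level of the list was 34.2 to 35.5 CPM in control, 34.5 to 42.8 with SRPIN340 and 60.2 to 68.5 in acidosis. Most of it was COL1A1, with a mean of 30.8 CPM in control, 32.9 with SRPIN340 and 62.3 in acidosis. Within the list COL1A1 rose by 1.02 in acidosis (edgeR adjusted p = 1.04e-04), and COL3A1 fell by 0.97 (edgeR adjusted p = 0.0142). Without control replicate 1 or 2 COL3A1 stood at -0.99 or -0.97, and its call was lost with 1 control library left. PTPRC, at 0.036 to 0.826 CPM, had a log2 fold change of 2.12 (edgeR adjusted p = 0.0473). Without control replicate 1 that was 1.32 and without control replicate 2 it was 4.07, each with 1 control library left. By DESeq2 the adjusted p was 0.104. The part of these markers in the results below was not tested. In bulk RNA, fewer cells expressing a gene and less of its RNA per cell cannot be told apart.

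**Figure D1:**
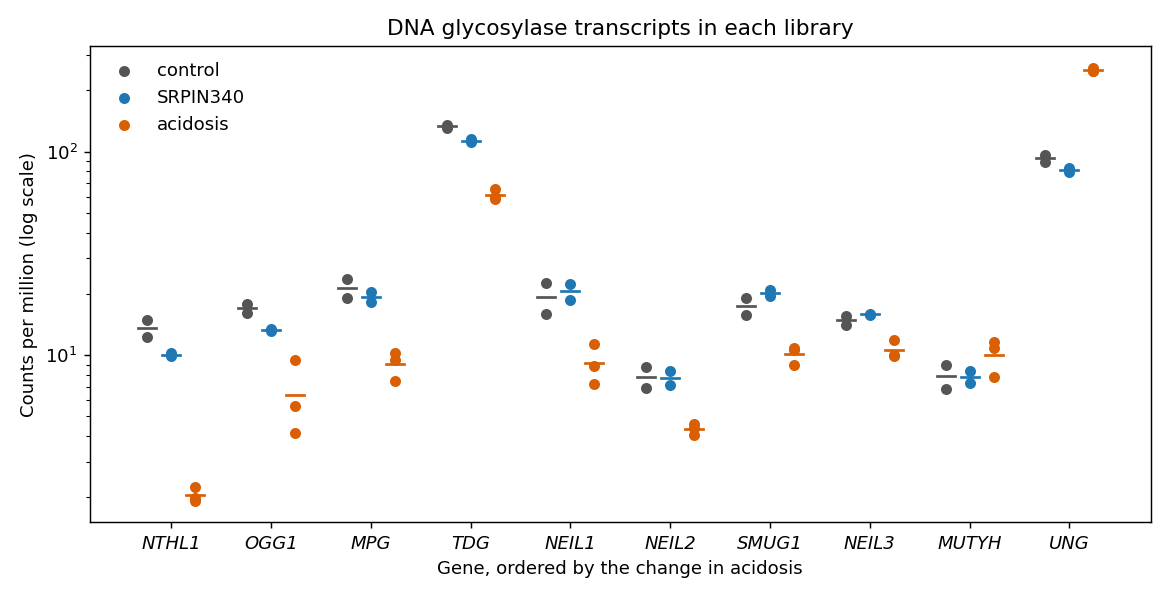
CPM of the 10 glycosylase genes in each of the 7 libraries on a log axis, with 1 point per library and a bar at the group mean. The acidosis points lie below the control and SRPIN340 points in 8 genes, overlap them in MUTYH and lie above them in UNG.

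NTHL1 and the NEIL genes encode the enzymes for oxidised pyrimidines. NTHL1 (ENSG00000065057.9, chr16:2039815-2047866, minus strand) removes thymine glycol and related lesions from double-stranded DNA in the nucleus and in mitochondria. Its estimated counts were 342 and 425 in control, 268 and 270 with SRPIN340, and 38, 21 and 23 in acidosis. In CPM these were 12.3 and 14.9, then 9.88 and 10.2, then 2.26, 1.93 and 1.98. The 3 groups did not overlap, and the highest acidosis library stood far below the lowest of the others. The mean went from 13.6 ± 1.84 CPM (SD, n = 2) to 2.05 ± 0.177 (SD, n = 3), and the log2 fold change of -2.71 (SE 0.19) had an adjusted p of 1.12e-06 by edgeR's quasi-likelihood test. Among the 14863 genes tested, 390 (2.62%) had a lower log2 fold change. Leaving out any single library kept it between -2.85 and -2.59.

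NEIL1 (ENSG00000140398.14, chr15:75346955-75357115) acts on oxidised pyrimidines and ring-opened purines. Its CPM were 15.9 and 22.6 in control, 18.7 and 22.5 with SRPIN340, and 11.3, 7.25 and 8.86 in acidosis. The control libraries differed more from each other, relative to their mean, than in any other member, but both lay above all acidosis libraries. NEIL1 fell by 1.06 on the log2 scale (SE 0.22, edgeR adjusted p = 0.00167). NEIL2 (ENSG00000154328.16), which prefers lesions in bubbles and single-stranded DNA, had 6.88 and 8.78 CPM in control, 8.37 and 7.1 with SRPIN340, and 4.57, 4.41 and 4.04 in acidosis. All acidosis libraries were below the rest, and NEIL2 fell by 0.85 on the log2 scale (SE 0.20, edgeR adjusted p = 0.00391).

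NEIL3 (ENSG00000109674.4, chr4:177309874-177362936) works on single-stranded DNA and on interstrand crosslinks, and is known as a gene of dividing cells. It had 15.6 and 14.1 CPM in control, 16 and 15.7 with SRPIN340, and 9.98, 11.9 and 9.89 in acidosis. The groups of acidosis and control did not overlap, but the gap was the smallest among the 8 genes that fell. Its log2 fold change was -0.49 (SE 0.15, edgeR adjusted p = 0.0137). Without control replicate 1 the log2 fold change was -0.43 and the call was lost, in a fit that left 1 control library. The call was also lost with a replicate block, as given below.

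OGG1 and MUTYH handle oxidised guanine, OGG1 by removing it from opposite cytosine and MUTYH by removing the adenine misplaced opposite it. OGG1 (ENSG00000114026.22, chr3:9749944-9788219) had 16.1 and 17.9 CPM in control, 13.4 and 13.2 with SRPIN340, and 5.64, 9.46 and 4.13 in acidosis. The acidosis libraries were spread more widely than for any other member relative to their mean, with replicate 2 the highest, yet all 3 lay below the rest. OGG1 fell by 1.42 on the log2 scale (SE 0.27, edgeR adjusted p = 9.75e-04).

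MUTYH (ENSG00000132781.21, chr1:45329163-45340893, minus strand) had 6.84 and 8.92 CPM in control, 7.3 and 8.35 with SRPIN340, and 10.8, 7.8 and 11.6 in acidosis. Replicate 2 of acidosis lay between the control libraries and the other two lay above them. The log2 fold change of 0.36 (SE 0.21) had a 95% interval from -0.12 to 0.84 and an adjusted p of 0.164 by edgeR. Without acidosis replicate 2 it was 0.51 with an adjusted p of 0.0425. With plain library totals it was -0.22, so its sign depended on the scaling.

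UNG, SMUG1 and TDG are the enzymes for uracil and for mismatched thymine. UNG (ENSG00000076248.12, chr12:109097597-109126725) removes uracil from DNA and is known to be made as a nuclear and a mitochondrial form from separate starts, which a gene-level count does not separate. It had 89.2 and 96.7 CPM in control, 83.3 and 79.1 with SRPIN340, and 249, 259 and 250.3 in acidosis. The acidosis libraries were close to each other and well above the rest. The mean went from 93 ± 5.29 CPM (SD, n = 2) to 253 ± 5.42 (SD, n = 3), and the log2 fold change of 1.44 (SE 0.07) had an edgeR adjusted p of 1.55e-07. Of the genes tested, 1148 (7.72%) had a higher log2 fold change. The value was 0.87 with plain library totals and still passed.

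SMUG1 (ENSG00000123415.16, chr12:54121277-54189008, minus strand), which removes uracil and oxidised uracil derivatives, had 15.7 and 19 CPM in control, 19.6 and 21 with SRPIN340, and 10.6, 8.91 and 10.9 in acidosis. It moved the other way from UNG, and fell by 0.77 on the log2 scale (SE 0.15, edgeR adjusted p = 0.0014). TDG (ENSG00000139372.15, chr12:103965822-103988874) removes thymine or uracil mispaired with guanine. Its CPM were 136 and 131 in control, 115 and 112 with SRPIN340, and 58.6, 60 and 65.9 in acidosis. Libraries of a group lay close together and the 3 groups did not overlap, and TDG fell by 1.12 on the log2 scale (SE 0.08, edgeR adjusted p = 1.25e-06).

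MPG (ENSG00000103152.12, chr16:77007-85851) is the enzyme for alkylated purines and for hypoxanthine. It had 19.1 and 23.6 CPM in control, 20.5 and 18.2 with SRPIN340, and 9.44, 7.44 and 10.3 in acidosis. The acidosis libraries were all below the rest, and MPG fell by 1.23 on the log2 scale (SE 0.17, edgeR adjusted p = 1.36e-04). A further glycosylase gene outside the 10, MBD4, which acts at methylated CpG mismatches, also fell, by 0.77 on the log2 scale (SE 0.16, edgeR adjusted p = 0.00182).

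Values of acidosis and control did not overlap in 9 of the 10 glycosylases, and in 76.5% of all genes tested in either direction. With a log2 fold change beyond 1 in size required as well, 5 glycosylases fell (NTHL1, OGG1, MPG, TDG and NEIL1) and 1 rose, where 19.1% of all tested genes fell and 14.4% rose that far. The share that fell by adjusted p alone, 8 of 10, thus stood beside 34.2% of all genes. Set directly against SRPIN340, the same 8 genes were lower in acidosis and UNG was higher (log2 fold change 1.64, SE 0.07, edgeR adjusted p = 7.67e-08), where 35% of all genes were lower and 32.8% higher. NTHL1 again had the largest difference, -2.28 (SE 0.19, edgeR adjusted p = 3.81e-06). This contrast shares its acidosis libraries with the one against control.

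**Figure D2:**
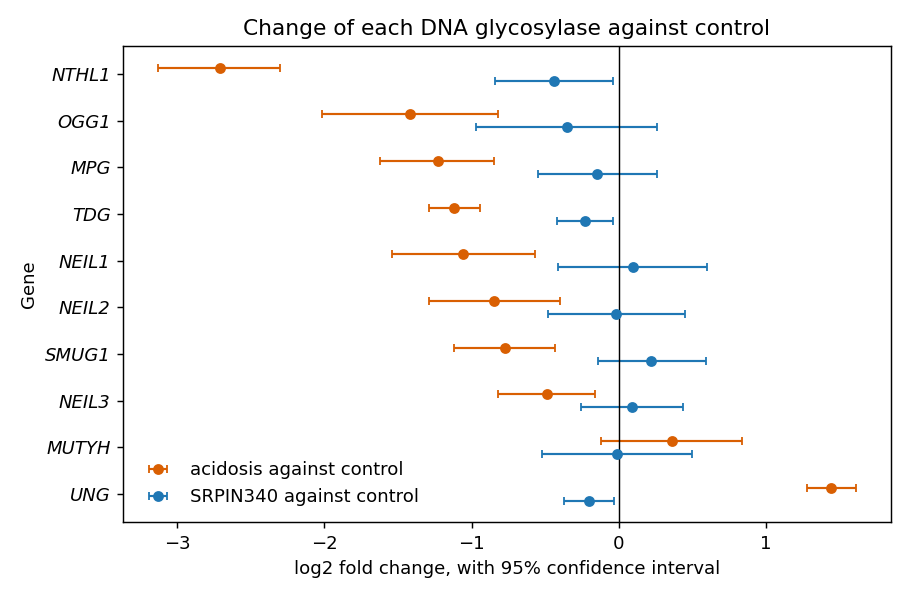
Log2 fold change of each glycosylase against control with its 95% confidence interval, for acidosis (orange) and SRPIN340 (blue), ordered by the value in acidosis. Acidosis values run from -2.71 (NTHL1) to 1.44 (UNG), whereas all SRPIN340 values lie between -0.44 and 0.22; both comparisons use the same 2 control libraries.

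SRPIN340 at normal pH left none of the 10 past an adjusted p of 0.05 by edgeR, where 1.53% of all genes tested fell and 0.767% rose. By DESeq2 the count was also 0, with the adjusted p not given for 3 genes. At an unadjusted p under 0.05 there were 3 by edgeR (NTHL1, UNG and TDG) and 2 by DESeq2 (UNG and TDG), and 17.6% of all genes reached that in edgeR and 13.2% in DESeq2. The lowest value was that of NTHL1, a log2 fold change of -0.44 (SE 0.18, 95% interval -0.84 to -0.04, adjusted p = 0.241 by edgeR). For OGG1 it was -0.35 (95% interval -0.97 to 0.26) and for TDG -0.23 (95% interval -0.42 to -0.04). For UNG it was -0.20 (95% interval -0.37 to -0.03), on the opposite side of 0 from its value in acidosis. The other 6 lay between -0.15 and 0.22, and the 95% interval of MUTYH ran from -0.52 to 0.50. The 2 SRPIN340 libraries did not overlap the 2 control libraries in 6 of the 10 genes, against 54.1% of all genes. These intervals are unadjusted, whereas the calls rest on adjusted p. With 2 libraries a group, small changes may have gone undetected.

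The make-up of the glycosylase transcripts within a library does not depend on scaling between libraries. UNG made up 26.8% and 27.1% of the summed estimated counts of the 10 genes in control, 26.7% and 25.7% with SRPIN340, and 66.9%, 68.5% and 66.2% in acidosis. TDG made up 40.7% and 36.6%, then 36.9% and 36.5%, then 15.7%, 15.9% and 17.4%. These shares are of counts, which grow with transcript length unless the deposited values were already corrected for it, and the sources used here do not say so; the transcript of TDG is longer than that of UNG. With counts divided by transcript length UNG already led in control, at 28.9% ± 0.231 against 26.7% ± 2.45 for TDG (SD, n = 2), and in acidosis the shares were 70.3% ± 1.17 and 11% ± 0.647 (SD, n = 3). NTHL1 went from 3.93% ± 0.336 (SD, n = 2) to 0.545% ± 0.0554 (SD, n = 3), and was 3.25% ± 0.117 (SD, n = 2) with SRPIN340. MUTYH kept 2.28% ± 0.314 in control and 2.68% ± 0.537 in acidosis, a difference within the spread. The counts of UNG were 7.24 and 6.49 times those of NTHL1 in control, and 110.3, 137 and 126 times in acidosis. The summed level of all 10 was 345 ± 16.9 CPM (SD, n = 2) in control, 309.9 ± 3.27 (SD, n = 2) with SRPIN340 and 376 ± 3.21 (SD, n = 3) in acidosis. The direction of that sum depended on the scaling, since with plain library totals it was 406 ± 22.4 CPM in control, 375 ± 4.1 with SRPIN340 and 297 ± 4.79 in acidosis. No test was made on shares, since 2 against 3 libraries cannot reach a two-sided p under 0.05 in an exact permutation test.

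**Figure D3:**
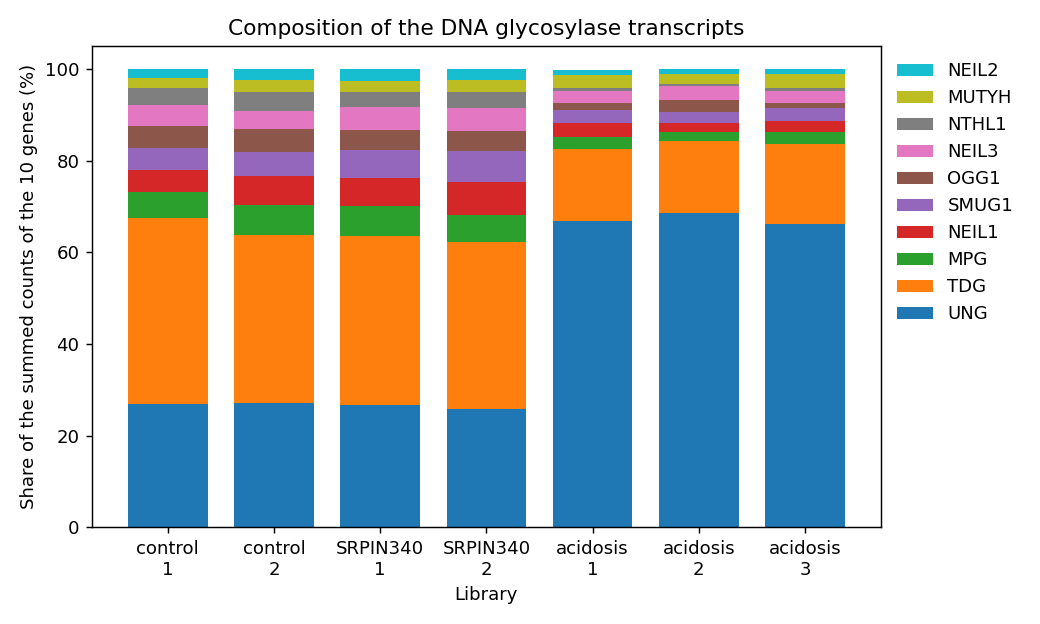
Share of each gene in the summed estimated counts of the 10 glycosylase genes, in percent, with 1 bar per library. UNG takes 25.7% to 27.1% of the bar in the control and SRPIN340 libraries and 66.2% to 68.5% in the acidosis libraries, and NTHL1 shrinks to 0.607% or less.

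Levels of different genes were compared per transcript length, as CPM per kb of the canonical transcript. The same length was used in every group, so a change of transcript form within a gene was not taken into account. If the deposited values were already corrected for length, this division corrects them again, and the order below may not hold. In plain CPM TDG led in control, at a mean of 133 against 93 for UNG. In control UNG stood first with 45.4 ± 2.58 CPM per kb (SD, n = 2) and TDG second with 41.9 ± 1.12. MPG followed with 20.6 ± 3.07, NTHL1 with 13.2 ± 1.78 and OGG1 with 10.4 ± 0.812. Below them came SMUG1, NEIL3, NEIL1 and MUTYH, from 6.47 to 4.61 CPM per kb, and neighbours in the order among these 4 overlapped. NEIL2 came last with 2.9 ± 0.497 and did not overlap MUTYH. NTHL1 was thus the fourth of 10 in control, and it was the fourth with SRPIN340 too, at 9.77 ± 0.255 CPM per kb. In acidosis it was the ninth at 1.99 ± 0.172 CPM per kb (SD, n = 3), its libraries overlapping those of NEIL1 at 2.47 ± 0.555 and lying above those of NEIL2 at 1.61 ± 0.101. UNG reached 124 ± 2.65 CPM per kb in acidosis, and TDG, the second, was at 19.3 ± 1.21. MUTYH moved up to the fourth place with 5.9 ± 1.17 CPM per kb, a level that overlapped that of NEIL3.

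The genes beside the glycosylases give values at the same positions. There were 11 of them by annotation, overlapping a member or starting within 5 kb of its start, and 10 could be tested. In acidosis 5 rose, 3 fell and 2 did not pass, a split of 2 higher and 5 lower with plain library totals. Of all genes tested 32.5% rose and 34.2% fell with TMM. With SRPIN340 none passed by edgeR. TSC2, the subunit of the TSC complex that restrains mTORC1, starts 101 bases from NTHL1 on the other strand. Its CPM were 93.5 and 87.9 in control, 86 and 80.7 with SRPIN340, and 166, 191 and 138 in acidosis. TSC2 rose by 0.86 on the log2 scale (SE 0.12, edgeR adjusted p = 1.5e-04) where NTHL1 fell. The ratio of NTHL1 to TSC2 counts was 0.132 and 0.17 in control, 0.115 and 0.127 with SRPIN340, and 0.0136, 0.00992 and 0.0144 in acidosis.

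UQCC6, an assembly factor of respiratory complex III, starts 114 bases from TDG on the other strand. It had 15.5 and 13.9 CPM in control and 24.4, 22.8 and 24.7 in acidosis, and rose by 0.71 on the log2 scale (SE 0.14, edgeR adjusted p = 0.00151). RHBDF1, an inactive rhomboid protein that starts 652 bases from MPG, had 4.68 and 7.93 CPM in control and 50.3, 32.9 and 45 in acidosis. It rose by 2.76 on the log2 scale (SE 0.25, edgeR adjusted p = 7.77e-06), whereas MPG fell. In each of these 3 divergent pairs the glycosylase fell and its partner rose. The ratio of their counts within a library, which needs no scaling, changed by -3.58, -1.82 and -4.03 on the log2 scale. For UNG to ALKBH2 and MUTYH to TOE1, described below, the same ratio changed the other way, by 2.25 and 0.81. With plain library totals RHBDF1 still rose (2.18, edgeR adjusted p = 3.27e-05), while TSC2 stood at 0.29 (edgeR adjusted p = 0.0619) and UQCC6 at 0.13 (edgeR adjusted p = 0.409).

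**Figure D4:**
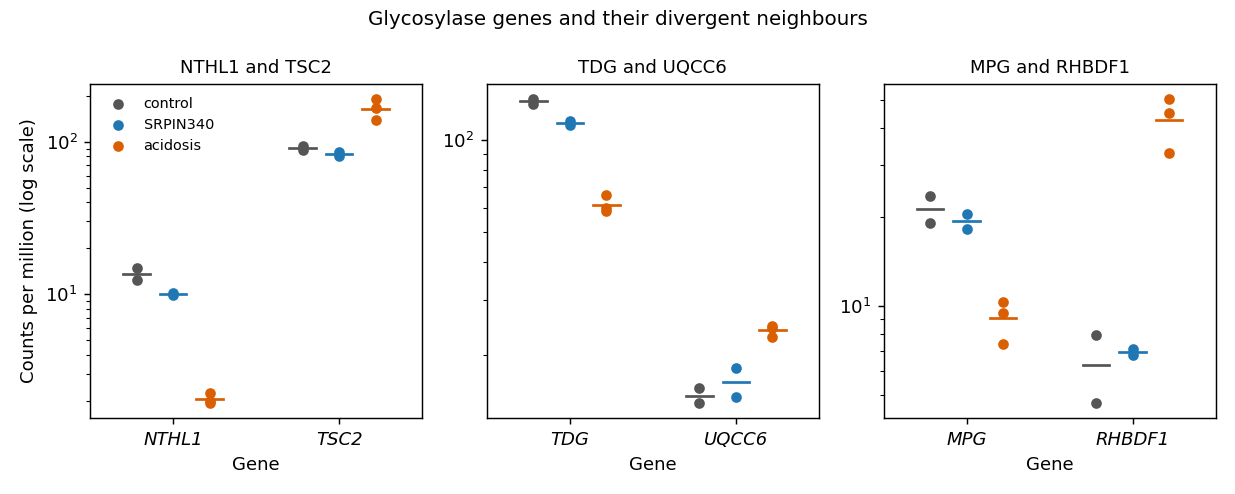
CPM on a log axis for NTHL1, TDG and MPG and the gene that starts beside each on the other strand, with 1 point per library and a bar at the group mean. In acidosis the glycosylase is below and its neighbour above the control libraries in all 3 pairs on this TMM scale; with plain library totals TSC2 and UQCC6 did not pass.

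For UNG the nearest start is that of ALKBH2, 3966 bases away on the other strand, an enzyme that reverses alkylation directly. ALKBH2 fell by 0.82 on the log2 scale (SE 0.17, edgeR adjusted p = 0.00186), from 10.5 and 13.6 CPM to 6.53, 7.34 and 6.62. ACACB, which overlaps UNG on the same strand, had a log2 fold change of -0.64 (edgeR adjusted p = 0.0444). That call was lost without acidosis replicate 2 (0.105) or 3 (0.122), both adjusted p by edgeR. It was also lost without either control library or either SRPIN340 library, fits that left 1 library in that group. TOE1 overlaps MUTYH by 842 bases on the other strand and fell by 0.45 (edgeR adjusted p = 0.032). The TOE1 call was lost without acidosis replicate 2 (-0.34, edgeR adjusted p = 0.0722) and without control replicate 2 (-0.35), which left 1 control library. MAN2C1 overlaps NEIL1 by 1909 bases and rose by 1.47 on the log2 scale (edgeR adjusted p = 5.29e-06). Of the pair that overlaps OGG1, CAMK1 rose by 0.47 (edgeR adjusted p = 0.00288, but -0.10 with plain library totals) and TADA3 did not pass (0.10, edgeR adjusted p = 0.455). NPRL3 overlaps MPG by 1581 bases and did not pass (-0.20, edgeR adjusted p = 0.146), and ENSG00000288208 was at 0 in 6 of 7 libraries. How the counting treated strand is not given in the sources used here. Reads of MUTYH, NEIL1, OGG1 and MPG thus cannot be fully told apart from those of genes overlapping them on the other strand. On the same strand ACACB overlaps UNG by 10139 bases and ENSG00000288208 overlaps MUTYH by 11632 bases, where strand could not separate reads. These overlaps are of gene bodies, and whether exons overlap was not tested.

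Genes that act with the glycosylases were described as lists beside the 10. The counts below stand beside 34.2% of all genes tested that fell in acidosis and 32.5% that rose. Of the 15 genes of short-patch repair, which finish a single-nucleotide gap, 7 fell, 3 rose and 5 did not pass in acidosis, with a median log2 fold change of -0.25. ADPRS, which removes ADP-ribose from serine, fell by 2.33 on the log2 scale (SE 0.22, edgeR adjusted p = 9.34e-06), and PARG, which trims poly(ADP-ribose), fell by 1.76 (SE 0.13, edgeR adjusted p = 1.65e-06). PARP2, a polymerase of that chain, rose by 1.60 (SE 0.08, edgeR adjusted p = 1.22e-07). PARP1, the main polymerase of the chain, fell by 0.25 (SE 0.05, edgeR adjusted p = 0.00146).

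Of the 18 genes of long-patch repair, which are also genes of replication, 6 fell, 7 rose and 5 did not pass. Their median was 0.08, and these counts lay near the shares of all genes tested, 34.2% lower and 32.5% higher. POLD2 rose by 1.42 on the log2 scale (SE 0.07, edgeR adjusted p = 1.24e-07) and POLE by 0.88 (SE 0.09, edgeR adjusted p = 1.65e-05), whereas POLE2 fell by 0.97 (SE 0.16, edgeR adjusted p = 3.66e-04). Of 8 enzymes that clean the nucleotide pool 6 fell, 1 rose and 1 did not pass, with a median of -0.53. SAMHD1, a dNTP hydrolase, fell by 1.99 (SE 0.10, edgeR adjusted p = 2.12e-07), and NUDT5, a hydrolase of oxidised nucleotides and ADP-ribose, by 1.96 (SE 0.10, edgeR adjusted p = 1.37e-07). NUDT18, a hydrolase of the same family, fell by 2.06 (SE 0.49, edgeR adjusted p = 0.00414) at a low level, 2.31 and 2.39 CPM in control and under 1 CPM in acidosis.

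Cytosine modification and deamination joins the glycosylases through TDG and UNG, and of 17 genes 16 could be tested. In acidosis 6 rose, 6 fell and 4 did not pass, with a median log2 fold change of -0.08. These counts too lay near the shares of all genes tested, 32.5% higher and 34.2% lower. The 3 stress-induced GADD45 genes stood apart from the rest. GADD45B went from 12.6 and 12.4 CPM to 1287, 1262 and 1253 (log2 fold change 6.66, SE 0.08, edgeR adjusted p = 5.55e-11). GADD45A rose by 4.63 on the log2 scale (SE 0.12, edgeR adjusted p = 6.49e-09) and GADD45G by 4.58 (SE 0.18, edgeR adjusted p = 3.62e-08).

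Of 4 genes of direct alkylation reversal, ALKBH2 and ALKBH3 fell, ALKBH3 by 0.87 (SE 0.18, edgeR adjusted p = 0.00186), and the other two did not pass. Of 8 genes of mitochondrial DNA maintenance 2 rose, 1 fell and 5 did not pass. These were POLG2, the accessory subunit of the mitochondrial polymerase (1.07, SE 0.13, edgeR adjusted p = 6.8e-05), the nuclease MGME1 (0.50, SE 0.10, edgeR adjusted p = 0.00121, but -0.07 with plain library totals), and the single-strand binding protein SSBP1 (-0.86, SE 0.08, edgeR adjusted p = 8.52e-06). The median of that list was -0.04. Plain library totals moved all these lists down, with 11 lower and 2 higher in short-patch repair and again 11 lower and 2 higher in long-patch repair, 7 and 0 in the nucleotide pool list, 9 and 5 in cytosine modification, 4 and 0 in direct reversal, and 6 and 1 in mitochondrial DNA maintenance. Under that scaling the glycosylase median was -1.53 and the other medians ran from -1.12 to -0.49. All genes tested then had a median of -0.63, with 8179 lower and 2413 higher. In none of these lists, under either scaling, did the median lie as low as that of the glycosylases, -0.95 with TMM, a description without a test.

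**Figure D5:**
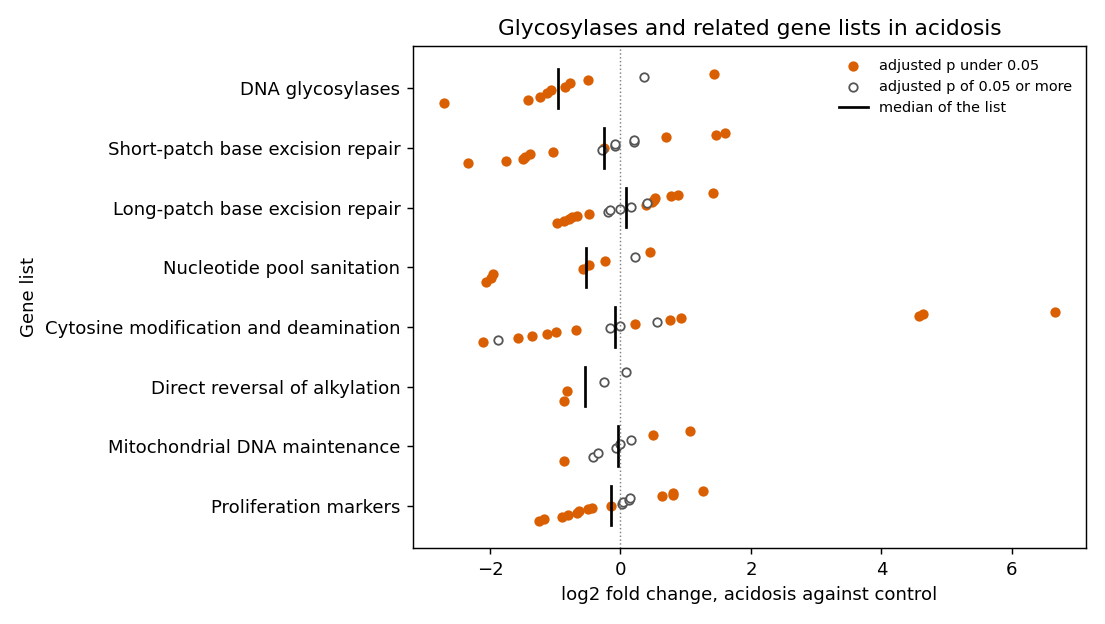
Log2 fold change in acidosis against control for the tested genes of 8 lists, with filled points for an adjusted p under 0.05 and a black bar at the median of each list. The glycosylase median is -0.95, the medians of the other lists lie between -0.54 and 0.08, and the 3 points beyond 4 are GADD45A, GADD45B and GADD45G.

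Proliferation markers moved in both directions. Of 17 in acidosis 9 fell, 4 rose and 4 did not pass (median -0.14), whereas with plain library totals 13 fell and 2 rose. Of all genes tested 34.2% fell and 32.5% rose with TMM. MKI67 fell by 1.17 on the log2 scale (SE 0.10, edgeR adjusted p = 3.86e-06) and CCNE2 by 1.25 (SE 0.16, edgeR adjusted p = 6.54e-05), whereas RRM2 rose by 1.27 (SE 0.06, edgeR adjusted p = 1.68e-07). Their summed level was 4905 to 5192 CPM in control, 4145 to 4170 with SRPIN340 and 4394 to 4572 in acidosis. The part of proliferation in the glycosylase levels was not tested.

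With SRPIN340, 4 of the proliferation markers fell, TYMS by 0.41 (SE 0.07, edgeR adjusted p = 0.0227), MCM5 by 0.50 (SE 0.09, edgeR adjusted p = 0.0308), MCM2 by 0.38 (SE 0.08, edgeR adjusted p = 0.0467) and RRM2 by 0.31 (SE 0.07, edgeR adjusted p = 0.0497). Across the repair lists 3 genes fell with SRPIN340. Of all genes tested 1.53% fell with SRPIN340 and 0.767% rose. The DNA ligase LIG1 went from 98.3 and 87 CPM to 66.6 and 61.8 (log2 fold change -0.53, SE 0.11, edgeR adjusted p = 0.0405). SAMHD1 fell by 0.60 (SE 0.11, edgeR adjusted p = 0.0323) and PARP1 by 0.31 (SE 0.06, edgeR adjusted p = 0.0305). LIG1 had a log2 fold change of 0.00 in acidosis (edgeR adjusted p = 0.97), or -0.57 (edgeR adjusted p = 0.000539) with plain library totals. No gene of the repair and proliferation lists rose with SRPIN340. Each of these 7 calls, and that of NEFM, was lost when any 1 of the control or SRPIN340 libraries was left out. Every such fit left a group of 1 library, so these losses cannot tell dependence on a library from lost power.

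The genes whose pattern over the 7 libraries was most like that of NTHL1 were sought among 11412 tested genes with a control mean of at least 5 CPM, by the root mean square difference of log2 CPM after subtracting the control mean. The closest was DBNL, an actin-binding adaptor, at a difference of 0.101. It had 106 and 108 CPM in control, 81.4 and 74.9 with SRPIN340, and 20.4, 16.1 and 16.4 in acidosis. Next came SEMA6D, a semaphorin, at 0.104, LCMT2, a tRNA-modifying methyltransferase, at 0.118, the mitochondrially encoded complex I subunit MT-ND6 at 0.162 and the transcription factor MECOM at 0.174. Their log2 fold changes in acidosis ran from -2.74 to -2.59, and with SRPIN340 from -0.46 to -0.29 (edgeR adjusted p from 0.0788 to 0.374). Since the genes were picked by likeness over these same libraries, values near those of NTHL1 follow from the choice. This measure counts the size of a change as well as its direction, so a gene with a smaller fall is placed further away. No other glycosylase was near NTHL1 by it. The nearest, OGG1, ranked 1121 at a difference of 0.856, and UNG ranked 10759 at 2.7.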

How the data were processed

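Poly(A) RNA libraries were read in pairs, trimmed with Trimmomatic (v. 0.39) and Trim Galore (v. 0.6.6) and quantified by the authors with Salmon (v. 1.5.1) on a Gencode GRCh38.p13 transcriptome. Each deposited value is an estimated count, summed over the transcripts of a gene by the authors with tximport, whose scaling option is not given in the sources used here. Of the values above 0 in the table, 0 were whole numbers (tolerance 1e-06); whether they were rescaled by transcript length was not tested, and the fit used no length offset. Each of the 7 columns was matched to a sample by its name, and 0 value columns were left over. The study describes technical replicates, but 1 column per sample was used here, so n counts biological repeats. Of 19978 gene identifiers, 19977 matched GENCODE release 44, which gave symbols, positions and transcript lengths.

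Counts were rounded, filtered (filterByExpr), scaled (TMM) and tested with edgeR (4.0.16, R 4.3.3) in a quasi-likelihood fit of all 7 samples without covariates. Adjusted p is Benjamini-Hochberg over all genes tested, and 0.05 was the threshold. SE is the log2 fold change divided by the root of F. DESeq2 (1.42.0) was an alternative. The members and lists were chosen with earlier results of these data known. Named beside all members and neighbours were, per list, the 3 genes with the largest change in acidosis that passed without overlap, those passing with SRPIN340, and the 5 most like NTHL1.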

Additional observations from a re-analysis of the deposited data

How the results depend on the processing

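Across DESeq2, RLE size factors, plain library totals, no filter, only the groups compared and the omission of single libraries, the glycosylases passing in acidosis stayed within 7 to 8 lower and 1 to 2 higher, and with SRPIN340 there were 0. MUTYH was the second that rose (without acidosis replicate 2), also against SRPIN340 (2 higher). With a replicate block the same count was 7 lower and 1 higher, NEIL3 being lost (log2 fold change -0.45, edgeR adjusted p = 0.0598). The neighbours ACACB (0.119) and TOE1 (0.0529) and the marker COL3A1 (0.0618) were lost too, all by edgeR adjusted p. Correlations of same-numbered samples' deviations lay between -0.115 and 0.063. In a group of 2 libraries the deviations mirror each other, so these values cannot decide whether same-numbered samples were handled together. Acidosis replicate 3 was alone in its block. With a log2 fold change beyond 1 the glycosylases lower were 5 (4 against SRPIN340). Of all genes, 2840 were then lower and 2145 higher in acidosis, 2935 and 2213 against SRPIN340, and 29 and 19 with SRPIN340. Plain library totals gave 8179 lower and 2413 higher in acidosis, and 8450 and 2349 against SRPIN340. The 228 lower and 114 higher with SRPIN340 became 562 and 330 by DESeq2, 368 and 236 with only the groups compared, 38 and 13 with the replicate block, and 10 to 319 and 4 to 207 without single libraries. The cause was not tested. Per transcript length, mean shares in acidosis were 70.3% for UNG, 11% for TDG, 4.98% for MPG, 3.36% for MUTYH, 2.16% for SMUG1, 2.55% for NEIL3, 2.23% for OGG1, 1.4% for NEIL1, 1.13% for NTHL1 and 0.912% for NEIL2, against 28.9% for UNG, 26.7% for TDG and 8.4% for NTHL1 in control. In acidosis NTHL1 had 21 to 38 counts a library, which limits its precision.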
